A study of Mus musculus with 12 samples.

Results

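Igj, Cybb, Cd79a, Cd79b and Ms4a1 were followed through 12 mouse RNA libraries. They are 5 of the 23361 gene symbols in the deposited table, and all 5 were among the 10868 genes tested, for which a value of 10 or more rescaled counts was required in 3 or more libraries. Igj and Cybb were selected on their levels in these data, near 0 in lymph node libraries and clear in islet libraries. Cd79a, Cd79b and Ms4a1 were taken with them as genes of the B cell surface. The islet against lymph node contrast therefore chose the members, and their values in it are a description with no test.

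Igj (Jchain in RefSeq) encodes the joining chain that links immunoglobulin monomers into polymeric IgA and IgM, and antibody-secreting cells make it in large amounts. Cd79a and Cd79b encode Ig-alpha and Ig-beta, the signalling pair of the B cell receptor, which mature B cells carry and plasma cells largely lose on the surface. Ms4a1 encodes CD20, a membrane protein of B cells before the plasma cell stage. Cybb encodes the catalytic, heme-binding subunit of the phagocyte NADPH oxidase, the enzyme that makes superoxide in neutrophils and macrophages and is also found in B cells. None of these genes is used to define a T cell.

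The libraries held RNA of Foxp3-expressing regulatory T cells (Tregs), which hold immune responses in check, from a mouse model of autoimmune diabetes. The 4 groups, each of 3 libraries, were Lag3-deficient Tregs of the islets (Lag3 islet), Wt Tregs of the islets (Wt islet), Lag3-deficient Tregs of non-draining lymph nodes (Lag3 NDL) and Wt Tregs of non-draining lymph nodes (Wt NDL). Lag3 is an inhibitory receptor that binds MHC class II. The sources used here give no strain, age or sorting markers, nor the way Lag3 was removed or the cells that lacked it, and no label says that libraries of a group came from separate animals. The p-values measure the spread between these libraries, which may be technical.

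The column headers number the libraries of each group 1, 2 and again 1, written here as 1a, 2 and 1b. Values are the authors' rescaled counts, whose totals lay between 15232498 and 15370098, so depth cannot be read from them. In Lag3 islet 2 and Wt NDL 2 the values moved in steps of 2.79 and 1.58, so that 1 read appears as about 3 in Lag3 islet 2 and about 2 in Wt NDL 2. The ribosomal RNA gene Rn45s took 1.26 to 1.68% of the signal in the 4 columns called 1b, against 0.149 to 0.571% in the other 8. Lag3 itself was listed at 0 to 1 rescaled counts in Lag3 islet libraries and 40 to 120 in Wt islet libraries, and at 0 to 3 in Lag3 NDL libraries and 2 to 6 in Wt NDL libraries. All 12 markers of T cells and Tregs fixed for the check, Cd3e, Cd4 and Foxp3 among them, held at least 10 rescaled counts in every library.

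Igj was abundant in all 6 islet libraries and near 0 in 5 of the 6 NDL libraries. Libraries 1a, 2 and 1b held 1526, 9450 and 1142 rescaled counts in Lag3 islet Tregs, and 6454, 7239 and 3149 in Wt islet Tregs. They held 64, 0 and 1 in Lag3 NDL Tregs, and 0, 2 and 2 in Wt NDL Tregs. The lowest islet library, Lag3 islet 1b, stood 17.8 times above the highest NDL library, Lag3 NDL 1a. In CPM, where each library is scaled to a total of 1000000, the level was 264 ± 306 in Lag3 islet and 367 ± 141 in Wt islet libraries, and 1.42 ± 2.40 in Lag3 NDL and 0.0869 ± 0.0753 in Wt NDL libraries (SD, n = 3 each). The large SD in Lag3 islet libraries came with 1 library, 2, that was higher than all Wt islet libraries while 1a and 1b were lower than all of them.

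Cybb had the same split between tissues. Values were 489, 2301 and 1965 rescaled counts in Lag3 islet libraries and 1007, 1122 and 2164 in Wt islet libraries. In NDL it had 82, 0 and 4 in Lag3 NDL libraries and 0, 2 and 1 in Wt NDL libraries. The lowest islet library was 5.96 times the highest NDL library, which was again Lag3 NDL 1a. Levels were 104 ± 62.9 CPM in Lag3 islet and 93.6 ± 41.8 CPM in Wt islet libraries, and 1.88 ± 3.03 CPM in Lag3 NDL and 0.0652 ± 0.0651 CPM in Wt NDL libraries (SD, n = 3 each). Within the islets the genotypes overlapped, with the Lag3-deficient group holding both the lowest and the highest library.

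**Figure D1:**
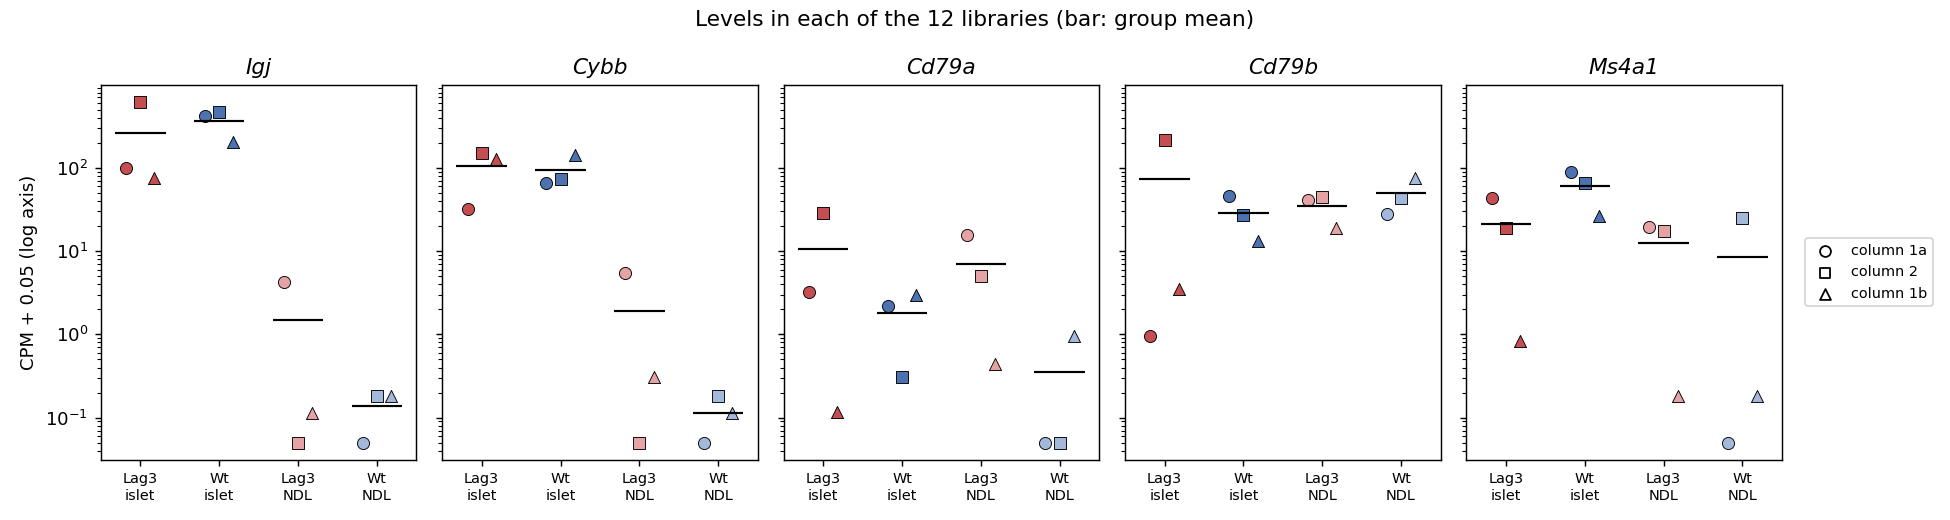
Level of each member in CPM plus 0.05 (log axis) in the 12 libraries, by group; each point is a library, its shape gives the column (1a, 2 or 1b) and bars are group means. The islet points of Igj and Cybb all lie above their NDL points, whereas those of Cd79a and Cd79b overlap them.

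Both genes lie on minus strands in GRCm38.p6. Igj spans chr5:88519809-88527897 and overlapped no other RefSeq gene. Cybb spans chrX:9435252-9487766 and overlaps Gm33784, which has no row in the table. The sources used here do not give the strandedness of the libraries, so reads of overlapping genes cannot be told apart. The RefSeq promoter table (GRCm38.p6) held 3 of the 5 members. The 250 bases before the listed start are shown because Igj and Cybb shared the split between tissues while Cd79a did not, with matches to the searched motifs in capitals. The windows are chr5:88527898-88528147 on the minus strand for Igj, chrX:9469325-9469574 on the minus strand for Cybb, where the listed start lies inside the annotated gene, and chr7:24897247-24897496 on the plus strand for Cd79a.
Igj: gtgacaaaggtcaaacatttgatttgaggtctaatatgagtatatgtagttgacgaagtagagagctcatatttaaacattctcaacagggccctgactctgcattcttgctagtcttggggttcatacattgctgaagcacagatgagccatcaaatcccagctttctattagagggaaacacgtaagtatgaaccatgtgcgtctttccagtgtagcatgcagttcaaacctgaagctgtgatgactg
Cybb: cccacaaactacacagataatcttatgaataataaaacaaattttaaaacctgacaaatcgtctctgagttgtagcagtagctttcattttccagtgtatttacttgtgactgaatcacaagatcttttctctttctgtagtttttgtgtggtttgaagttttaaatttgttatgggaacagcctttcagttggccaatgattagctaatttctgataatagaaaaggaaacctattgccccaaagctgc
Cd79a: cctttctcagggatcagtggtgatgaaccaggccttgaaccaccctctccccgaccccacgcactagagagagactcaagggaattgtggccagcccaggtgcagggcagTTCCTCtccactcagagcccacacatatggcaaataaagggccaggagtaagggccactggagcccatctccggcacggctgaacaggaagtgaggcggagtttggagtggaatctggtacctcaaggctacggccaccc
The motifs searched on both strands were the PU.1 core GAGGAA, which reads TTCCTC on the other strand and is bound by a factor of B and myeloid cells, and the octamer ATTTGCAT, which reads ATGCAAAT on the other strand and is known from immunoglobulin promoters. The Cd79a window held 1 PU.1 core, shown in capitals, which starts 140 bases before the listed start. The Igj and Cybb windows held neither motif in these exact letters, and variants of the motifs were not searched in any window. Of all 32851 promoter windows of this length, 23.3% held the PU.1 core and 1.6% the octamer. The GC content was 42% for Igj, 34% for Cybb and 58.8% for Cd79a.

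The 3 B cell surface genes did not share the split of Igj and Cybb. Cd79a (chr7:24897497-24901858, plus strand) was listed at 48, 435 and 1 rescaled counts in Lag3 islet libraries 1a, 2 and 1b, and at 33, 4 and 44 in Wt islet libraries. In NDL it was listed at 235, 76 and 6 in Lag3 libraries and at 0, 0 and 14 in Wt libraries. The second highest library of all was thus Lag3 NDL 1a, and islet and NDL libraries overlapped in both genotypes. The mean was 10.5 ± 15.5 CPM in Lag3 islet and 1.77 ± 1.35 CPM in Wt islet libraries, and 6.91 ± 7.68 CPM in Lag3 NDL and 0.305 ± 0.528 CPM in Wt NDL libraries (SD, n = 3 each).

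Cd79b (chr11:106311341-106314562, minus strand), the partner of Cd79a in the receptor, was present in all NDL libraries. Libraries held 14, 3269 and 53 rescaled counts in Lag3 islet libraries and 691, 410 and 203 in Wt islet libraries. In lymph nodes it had 620, 689 and 287 in Lag3 NDL libraries and 432, 667 and 1166 in Wt NDL libraries. Lag3 islet libraries held the 2 lowest values and the highest one. Means were 72.6 ± 122 CPM in Lag3 islet and 28.4 ± 16.1 CPM in Wt islet libraries, and 34.7 ± 14 CPM in Lag3 NDL and 49.2 ± 24.5 CPM in Wt NDL libraries (SD, n = 3 each).

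Ms4a1 (chr19:11249679-11266149, minus strand) was listed at 656, 293 and 12 rescaled counts in Lag3 islet libraries and 1372, 1008 and 399 in Wt islet libraries. It was listed at 296, 270 and 2 in Lag3 NDL libraries and 0, 385 and 2 in Wt NDL libraries. All 3 Wt islet libraries were above all Wt NDL libraries, the nearest pair being 399 in Wt islet 1b and 385 in Wt NDL 2, whereas Lag3 islet and Lag3 NDL libraries overlapped. Levels averaged 20.9 ± 21.1 CPM in Lag3 islet and 60.6 ± 32.3 CPM in Wt islet libraries, and 12.4 ± 10.6 CPM in Lag3 NDL and 8.39 ± 14.4 CPM in Wt NDL libraries (SD, n = 3 each). The gene overlaps 4930526L06Rik, whose row held 0 to 3 rescaled counts per library.

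On the log2(CPM + 1) scale with trimmed-mean (TMM) scaling, Igj stood 6.69 ± 1.10 higher in Lag3 islet than in Lag3 NDL libraries and 8.41 ± 1.10 higher in Wt islet than in Wt NDL libraries (SE). The differences for Cybb were 5.55 ± 1.21 in Lag3-deficient and 6.49 ± 1.21 in Wt Tregs. Those for Ms4a1 were 0.78 ± 1.60 and 4.27 ± 1.60, those for Cd79a 0.09 ± 1.15 and 1.02 ± 1.15, and those for Cd79b -1.38 ± 1.27 and -0.71 ± 1.27, the Lag3-deficient value first in each pair. These values describe the choice of members and understate the change of genes near 0. Islet libraries lay above NDL libraries without overlap for Igj and Cybb in Lag3-deficient Tregs and for Igj, Cybb and Ms4a1 in Wt Tregs. Over all tested genes 4.35% did so in Lag3-deficient and 6.88% in Wt Tregs, and 1.09% did so with both genotypes together. In bulk RNA, more cells of a type and more RNA per cell cannot be told apart.

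The groups could be ordered by level, from the highest mean log2 value to the lowest. For both Igj and Cybb the order was Wt islet, Lag3 islet, Lag3 NDL and Wt NDL. Neighbours within a tissue overlapped, and the step from islet to NDL did not. In NDL the place of the Lag3-deficient group came from library 1a, since its other 2 libraries held 4 or fewer rescaled counts of either gene. For Cd79a the order was Lag3 islet, Lag3 NDL, Wt islet and Wt NDL, for Cd79b it was Wt NDL, Lag3 NDL, Wt islet and Lag3 islet, and for Ms4a1 it was that of Igj. All neighbouring groups of these 3 genes overlapped.

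Lag3-deficient and Wt Tregs were compared to ask whether loss of Lag3 changed the members. None of the 5 passed the threshold of an adjusted p under 0.05 (limma, Benjamini-Hochberg over 10868 genes) in islets, in NDL, averaged over tissues or in the difference between tissues. The background was 0% of tested genes called in each of these 4 comparisons. Without Lag3 islet 1b, 16 genes were called in islets, none of them a member. At an unadjusted p under 0.05, limma gave 624 genes in islets (5.74% of those tested), 296 in NDL (2.72%), 400 averaged over tissues (3.68%) and 437 for the difference between tissues (4.02%). No member was among them, since the smallest unadjusted p of a member was 0.0966, for Cd79a averaged over tissues (limma, 1.42 ± 0.82 log2, adjusted p = 0.999). Libraries of the 2 genotypes overlapped for every member in both tissues. Over all tested genes, 3.5% were higher without overlap in Lag3-deficient than in Wt Tregs of the islets and 5.52% were lower, and in NDL 4.51% were higher and 2.57% lower.

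In islets the genotype difference of Igj was -1.13 ± 1.10 log2 (SE; 95% interval -3.42 to 1.16; limma adjusted p = 0.973), against a median over all tested genes of -0.22. For Cybb it was -0.13 ± 1.21 (-2.66 to 2.41; limma adjusted p = 0.998). These intervals hold changes of more than 2 log2 units in either direction for Cybb, so a difference of that size was not detectable with 3 libraries a group. Ms4a1 gave -2.33 ± 1.60 (-5.68 to 1.02), Cd79b -1.23 ± 1.27 (-3.88 to 1.43) and Cd79a 0.96 ± 1.15 (-1.45 to 3.37), with limma adjusted p between 0.947 and 0.983. The receptor partners Cd79a and Cd79b therefore had fitted differences of opposite sign, neither of them past the threshold.

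In NDL the differences were 0.59 ± 1.10 for Igj (-1.70 to 2.88) and 0.80 ± 1.21 for Cybb (-1.73 to 3.34), where Lag3 NDL 1a alone held more than 4 rescaled counts of either gene. Cd79a gave 1.89 ± 1.15 (-0.52 to 4.30), Cd79b -0.56 ± 1.27 (-3.21 to 2.10) and Ms4a1 1.17 ± 1.60 (-2.18 to 4.51), all with a limma adjusted p of 1. The genotype effect in islets minus that in NDL was -1.72 ± 1.55 for Igj, -0.93 ± 1.72 for Cybb, -0.94 ± 1.63 for Cd79a, -0.67 ± 1.80 for Cd79b and -3.50 ± 2.27 for Ms4a1, each with a limma adjusted p of 1. Averaged over tissues the genotype differences were -0.27 ± 0.78 for Igj, 0.34 ± 0.86 for Cybb, -0.89 ± 0.90 for Cd79b and -0.58 ± 1.13 for Ms4a1, each with a limma adjusted p of 0.999.

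**Figure D2:**
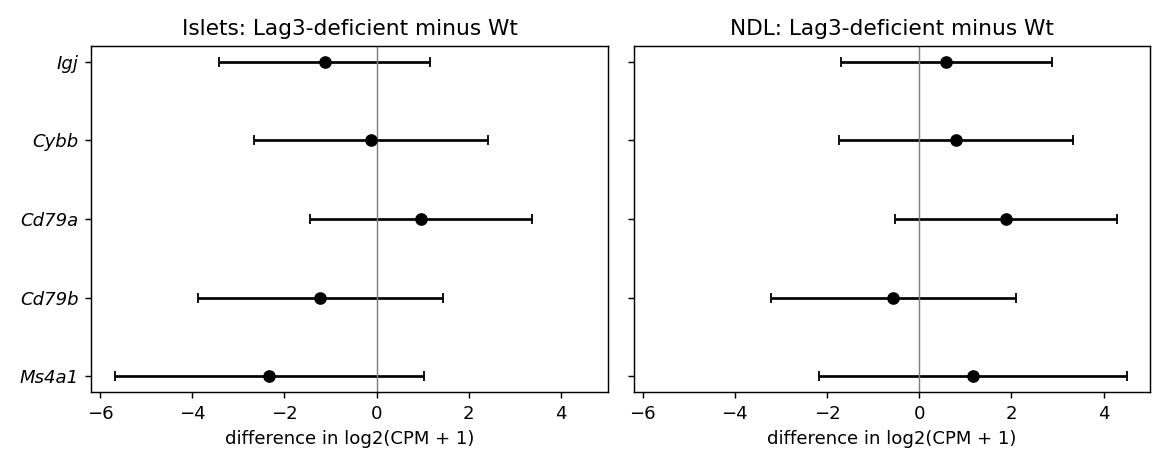
Difference between Lag3-deficient and Wt libraries in log2(CPM + 1) for each member, in islets (left) and NDL (right); points are the fitted differences and bars their 95% intervals (n = 3 libraries a group). All 10 intervals include 0.

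The members differed in how far libraries of a group scattered. The residual SD was 0.98 log2 for Igj and 0.86 for Cybb, below the median of 1.26 over all tested genes, at the percentiles 34.5 and 27.5. It was 1.48 for Cd79a, 1.84 for Cd79b and 2.15 for Ms4a1, at the percentiles 62.6, 81.9 and 93.4. For Igj and Cybb this SD includes the NDL libraries near 0, on which these genes were selected. The SD of log2 levels was 1.43 in Lag3 islet and 0.70 in Wt islet libraries for Igj, and 1.04 in Lag3 islet and 0.56 in Wt islet libraries for Cybb.

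Within the islets Igj and Cybb did not keep a fixed ratio. Rescaled counts of Igj divided by those of Cybb were 3.12, 4.11 and 0.581 in Lag3 islet libraries 1a, 2 and 1b, and 6.41, 6.45 and 1.46 in Wt islet libraries. The ratio is not corrected for gene length and is compared only between libraries. It was lowest in the 1b column of each genotype, the columns with the higher Rn45s share, whose part in the result was not tested. Across the 6 islet libraries the log2 levels of both genes gave Pearson r = 0.08 (exact permutation p = 0.912) and Spearman rho = -0.14 (exact permutation p = 0.803). Without the 2 libraries farthest from the median of Igj, r was -0.60.

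The levels of Igj and Cybb in islets were also set against summed marker levels of other cell types, which made 7 relations in all. Igj and the sum of 16 B cell markers other than the members gave r = 0.77 (exact permutation p = 0.0792, adjusted p = 0.554) and rho = 0.71 (exact permutation p = 0.136, adjusted p = 0.937). Without Lag3 islet 1b and 1a, the libraries with the least Igj, r was 0.18. Cd74, the class II invariant chain of antigen-presenting cells, gave 157 to 370 CPM in islet libraries, where the B cell sum was 190 to 535 CPM. The relation of Igj with the B cell sum was not computed without Cd74. Cybb and the sum of 26 myeloid markers gave r = -0.61 (exact permutation p = 0.206, adjusted p = 0.721) and rho = -0.54 (exact permutation p = 0.297, adjusted p = 0.937). Without Lag3 islet 1a and Wt islet 1a, r was -0.16. Cst3 and Ctss, abundant in every library, carried most of that sum, and with the other 24 markers alone, a choice made after seeing the data, r was -0.52 (exact permutation p = 0.307, adjusted p = 0.784). The other 4 relations, with B cell, myeloid or exocrine sums, had r between -0.33 and 0.45 and exact permutation p of at least 0.421.

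**Figure D3:**
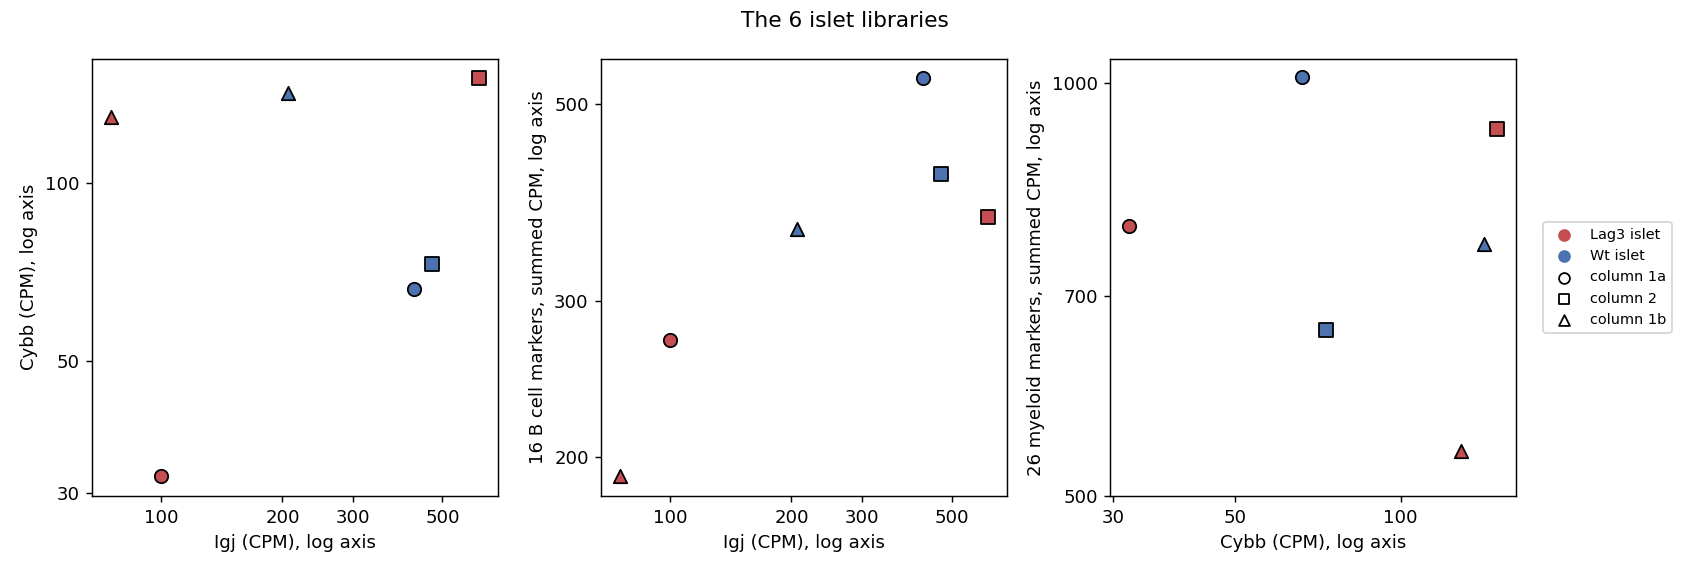
The 6 islet libraries by Igj and Cybb (left), Igj and the summed level of 16 B cell markers (middle), and Cybb and the summed level of 26 myeloid markers (right), all in CPM on log axes; colour gives the genotype and shape the column. The 1b libraries have the lowest Igj level of their genotype, and no exact permutation test across the 6 points reached an adjusted p under 0.05.

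The B cell list held 22 markers, of which 19 had a row, the 3 B cell members included, and 11 of the others were tested. Of these 11, 1 gene rose in islets in Wt Tregs and averaged over genotypes, Cd74, the class II invariant chain, which all antigen-presenting cells carry. Cd74 was listed at 2394, 2482 and 2418 rescaled counts in Lag3 islet libraries and 5636, 3031 and 3806 in Wt islet libraries. It was listed at 2664, 832 and 1018 in Lag3 NDL libraries and 429, 697 and 29 in Wt NDL libraries. The difference was 1.00 ± 0.76 log2 in Lag3-deficient Tregs (limma adjusted p = 0.751), 4.20 ± 0.76 in Wt Tregs (limma adjusted p = 0.0242) and 2.60 ± 0.54 averaged over genotypes (limma adjusted p = 0.0198), so it was not called in Lag3-deficient Tregs. Without Wt islet 1a the limma adjusted p was 0.143 in Wt Tregs and 0.0752 averaged, without Wt islet 1b it was 0.0873 in Wt Tregs, and without Lag3 NDL 2 it was 0.0567 averaged. Over all tested genes, 0.12% were called in Lag3-deficient Tregs and 0.184% in Wt Tregs, all of them higher in islets, and 0.92% averaged over genotypes (0.819% higher and 0.101% lower).

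The 11 tested B cell markers had a median islet minus NDL difference of 0.19 log2 in Lag3-deficient and 1.43 in Wt Tregs, against -0.15 and 0.10 over all tested genes. Genes that define B cells were singled out after their values were seen. Pax5, the B cell identity factor, was listed at 0 in all 12 libraries. Ebf1, its partner in early B cell development, held at most 4 rescaled counts. The number of the 16 B cell markers with at least 10 rescaled counts was 10, 9 and 7 in Lag3 islet, 8, 10 and 7 in Wt islet, 9, 7 and 3 in Lag3 NDL and 7, 7 and 6 in Wt NDL libraries. Their summed level was 190 to 373 CPM in Lag3 islet, 362 to 535 in Wt islet, 147 to 266 in Lag3 NDL and 86.5 to 139 in Wt NDL libraries. Cd74 alone gave 159 ± 2.70 CPM in Lag3 islet, 272 ± 88.6 in Wt islet, 98.3 ± 66.1 in Lag3 NDL and 25.1 ± 21.9 in Wt NDL libraries (SD, n = 3 each), and the part of B cell RNA in the level of Igj was not tested.

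Igj and the B cell surface genes came apart in both directions in some libraries and rose together in another, all singled out after their values were seen. Lag3 islet 2, with the most Igj at 9450 rescaled counts, also held the most Cd79a, at 435, and the most Cd79b, at 3269. Ms4a1 was at 293 there, below all Wt islet libraries. Lag3 islet 1b held 1142 rescaled counts of Igj with 1 of Cd79a, 12 of Ms4a1 and 53 of Cd79b. Lag3 NDL 2 held 0 of Igj with 76 of Cd79a, 270 of Ms4a1 and 689 of Cd79b. Ighm, Ighd, Igkc, Igha and Ighg1 were on the lists but had no row under these symbols, so immunoglobulin chains could not be set beside the joining chain.

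The B cell receptor and its proximal signalling gave 20 listed genes, 13 of them tested besides the members, and 0 of these 13 were called in either tissue comparison or averaged over genotypes (limma). Median islet minus NDL differences were -0.06 log2 in Lag3-deficient and 1.23 in Wt Tregs. The smallest p belonged to Lyn, the kinase that phosphorylates the receptor, listed at 3, 17 and 17 in Lag3 islet, 251, 16 and 219 in Wt islet, 0, 2 and 1 in Lag3 NDL and 0, 0 and 0 in Wt NDL libraries (limma adjusted p = 0.163). Prkcb, a protein kinase C also found in T cells, had a difference of 1.02 ± 0.32 log2 averaged over genotypes (limma adjusted p = 0.183). Blnk, the adaptor downstream of the receptor, was listed at 16, 0 and 0 in Lag3 islet and 155, 599 and 0 in Wt islet libraries, and at 0 in all NDL libraries (limma adjusted p = 0.34). Cr2, a complement receptor of B cells, had a difference of 1.41 ± 0.80 (limma adjusted p = 0.531). Summed levels of the list were 685 to 969 CPM in Lag3 islet, 825 to 1070 in Wt islet, 850 to 1020 in Lag3 NDL and 682 to 816 in Wt NDL libraries.

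Genes of plasma cells and antibody secretion, the company in which Igj is best known, gave 22 listed genes, 15 of them tested besides Igj, and 0 of these 15 were called in any tissue comparison (limma). Their median islet minus NDL difference was 0.64 log2 in Lag3-deficient and 0.87 in Wt Tregs. Mzb1, an endoplasmic reticulum protein of antibody-secreting and marginal zone B cells, came nearest. It was listed at 1056, 424 and 0 rescaled counts in Lag3 islet, 411, 328 and 169 in Wt islet, 0, 1 and 2 in Lag3 NDL and 1, 2 and 2 in Wt NDL libraries. The difference averaged over genotypes was 3.89 ± 0.95 (limma adjusted p = 0.0545), and without Lag3 islet 1b, where Mzb1 was listed at 0, it was 4.81 ± 0.84 (limma adjusted p = 0.00885). Leaving out any other single library gave a limma adjusted p of 0.0739 to 0.14. The call also depended on the processing. With every library kept, the limma adjusted p was 0.0464 under relative log scaling and 0.0368 under voom weights. Lag3 islet 1b held 1142 rescaled counts of Igj.

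The plasma cell regulators were less divided between tissues. Prdm1, which encodes the repressor Blimp-1 of plasma cells and effector Tregs, was listed at 39, 2139 and 1631 in Lag3 islet, 1138, 2137 and 695 in Wt islet, 431, 297 and 34 in Lag3 NDL and 75, 123 and 168 in Wt NDL libraries (limma adjusted p = 0.237). Irf4, a factor of plasma cells and of activated T cells, was present in all libraries and differed by 1.29 ± 0.44 (limma adjusted p = 0.23). Eaf2, a transcription elongation factor, differed by 1.85 ± 0.83 (limma adjusted p = 0.4). Sdc1 and Tnfrsf17, the surface markers of plasma cells, were singled out after their values were seen. Sdc1 held 1, 0 and 67 rescaled counts in Lag3 islet libraries and at most 4 in every other library. Tnfrsf17 held 539, 0 and 0 in Lag3 islet and 56, 0 and 0 in Wt islet libraries, and at most 2 in NDL libraries. Both were listed at 0 in Lag3 islet 2, the library with the most Igj, in which 927 tested genes were at 0, against 404 to 513 in the other islet libraries. The same library held the highest value of Xbp1, the factor of the secretory programme, at 4145 rescaled counts. It also had the most Pou2af1, a coactivator of B cells, at 2195, and 2139 of Prdm1, level with 2137 in Wt islet 2. These genes too were singled out after their values were seen. Not all genes of the list were high there. Ssr4 was at 404, its lowest value in the 12 libraries, Txndc5 at 139, Creld2 at 248, and Fkbp11 and Tnfrsf13b at 0. Summed levels of the list without Igj were 718 to 842 CPM in Lag3 islet, 567 to 947 in Wt islet, 263 to 796 in Lag3 NDL and 451 to 700 in Wt NDL libraries.

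The partners of Cybb in the NADPH oxidase did not move with it. Of the 9 listed genes, 8 were tested besides Cybb, and 0 were called in any tissue comparison (limma). Their median islet minus NDL difference was -0.36 log2 in Lag3-deficient and 0.03 in Wt Tregs. Cyba, the membrane subunit that pairs with the Cybb product, was listed at 2370, 4212 and 3730 rescaled counts in Lag3 islet, 3170, 1589 and 3378 in Wt islet, 3581, 4492 and 3967 in Lag3 NDL and 3057, 4032 and 1920 in Wt NDL libraries. Its difference averaged over genotypes was -0.09 ± 0.32 (limma adjusted p = 0.945), and islet and NDL libraries overlapped in each genotype. The RNA of the membrane partner was thus present in NDL libraries in which Cybb was listed at 0.

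The cytosolic subunits Ncf1 and Ncf4 gave averaged differences of -0.29 ± 1.10 and 0.06 ± 0.43, with limma adjusted p of 0.951 and 0.974. Ncf1 was listed at 16, 3 and 179 in Lag3 islet, 100, 154 and 34 in Wt islet, 373, 366 and 13 in Lag3 NDL and 654, 0 and 0 in Wt NDL libraries. Ncf1 thus had its highest values in NDL libraries, unlike Cybb, which was at 489 or more in every islet library. The GTPases of the complex gave 0.37 ± 0.25 for Rac1, -0.55 ± 0.25 for Rac2 and 0.42 ± 0.38 for Rap1a, with limma adjusted p of 0.611, 0.413 and 0.732. Hvcn1, the proton channel that sustains oxidase activity and is also found in B cells, gave -3.01 ± 0.97 (limma adjusted p = 0.192). It was listed at 541, 33 and 1 in Lag3 islet and 303, 86 and 14 in Wt islet libraries, and at 750, 423 and 900 in Lag3 NDL and 494, 529 and 2050 in Wt NDL libraries. Summed levels of the list without Cybb were 1880 to 1980 CPM in Lag3 islet, 2160 to 2430 in Wt islet, 2310 to 3050 in Lag3 NDL and 2400 to 2590 in Wt NDL libraries.

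Myeloid cells, the usual source of Cybb RNA, were followed through 29 markers, 27 of them in the table and 11 tested besides Cybb. None of the 11 was called in any tissue comparison (limma), and their median islet minus NDL difference was 0.71 log2 in Lag3-deficient and 1.57 in Wt Tregs. Tyrobp, an adaptor of myeloid and NK cell receptors, was listed at 269, 0 and 178 in Lag3 islet, 11, 114 and 29 in Wt islet, 0, 0 and 1 in Lag3 NDL and 0, 0 and 3 in Wt NDL libraries (limma adjusted p = 0.192). Fcer1g, the common chain of Fc receptors, Mpeg1, a pore-forming protein of macrophages, and Lyz1, a lysozyme whose reads can be shared with its near copy Lyz2, gave averaged differences of 1.46 ± 0.59, 1.92 ± 0.78 and 2.31 ± 0.95, with limma adjusted p of 0.329, 0.34 and 0.345. Each of these 4 genes was at 5 or fewer rescaled counts in at least 1 islet library, unlike Cybb.

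Defining myeloid markers were singled out after their values were seen. S100a8, a neutrophil gene, was listed at 0 in all 12 libraries, and S100a9, its partner, at no more than 1. Itgam, the integrin CD11b, held at most 14 rescaled counts and Emr1, the macrophage marker F4/80, at most 6. Csf1r, the macrophage growth factor receptor, was listed at 2, 0 and 2 in Lag3 islet libraries and 45, 0 and 458 in Wt islet libraries. Other myeloid genes were high in some islet libraries and low in others. Cd209a held 1188, 3 and 0 in Lag3 islet and 589, 0 and 72 in Wt islet libraries, and at most 2 in NDL. C1qb held 1, 0 and 7 in Lag3 islet and 188, 0 and 347 in Wt islet libraries, and 0 in NDL. Lyz2 held 270, 31 and 2 in Lag3 islet and 1440, 8 and 289 in Wt islet libraries. It also reached 565 in Lag3 NDL 2 and 256 in Wt NDL 1a. Cd68, a lysosomal protein of macrophages, held 2, 586 and 0 in Lag3 islet and 0, 342 and 0 in Wt islet libraries, and at most 25 in NDL libraries. Fcgr1, a high-affinity Fc receptor, held 2, 396 and 2 in Lag3 islet and 2, 3 and 142 in Wt islet libraries, and at most 2 in NDL libraries. Lag3 islet 2, with the most Cybb, thus held Cd68 and Fcgr1 while Csf1r was listed at 0. The number of the 26 markers other than Cybb with at least 10 rescaled counts was 8, 10 and 5 in Lag3 islet, 14, 8 and 12 in Wt islet, 3, 5 and 3 in Lag3 NDL and 4, 2 and 3 in Wt NDL libraries. Their summed level was 539 to 926 CPM in Lag3 islet, 661 to 1010 in Wt islet, 699 to 927 in Lag3 NDL and 533 to 918 in Wt NDL libraries. Cst3 and Ctss, which also were abundant in every NDL library, made up 74.6 to 99.8% of these sums. The other 24 markers summed to 15.7 to 145 CPM in Lag3 islet and 60.7 to 256 in Wt islet libraries, and to 3 to 41.8 in Lag3 NDL and 1.76 to 20.2 in Wt NDL libraries. This sum was thus higher in most islet libraries, as Cybb was, and its part in the level of Cybb was not tested.

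**Figure D4:**
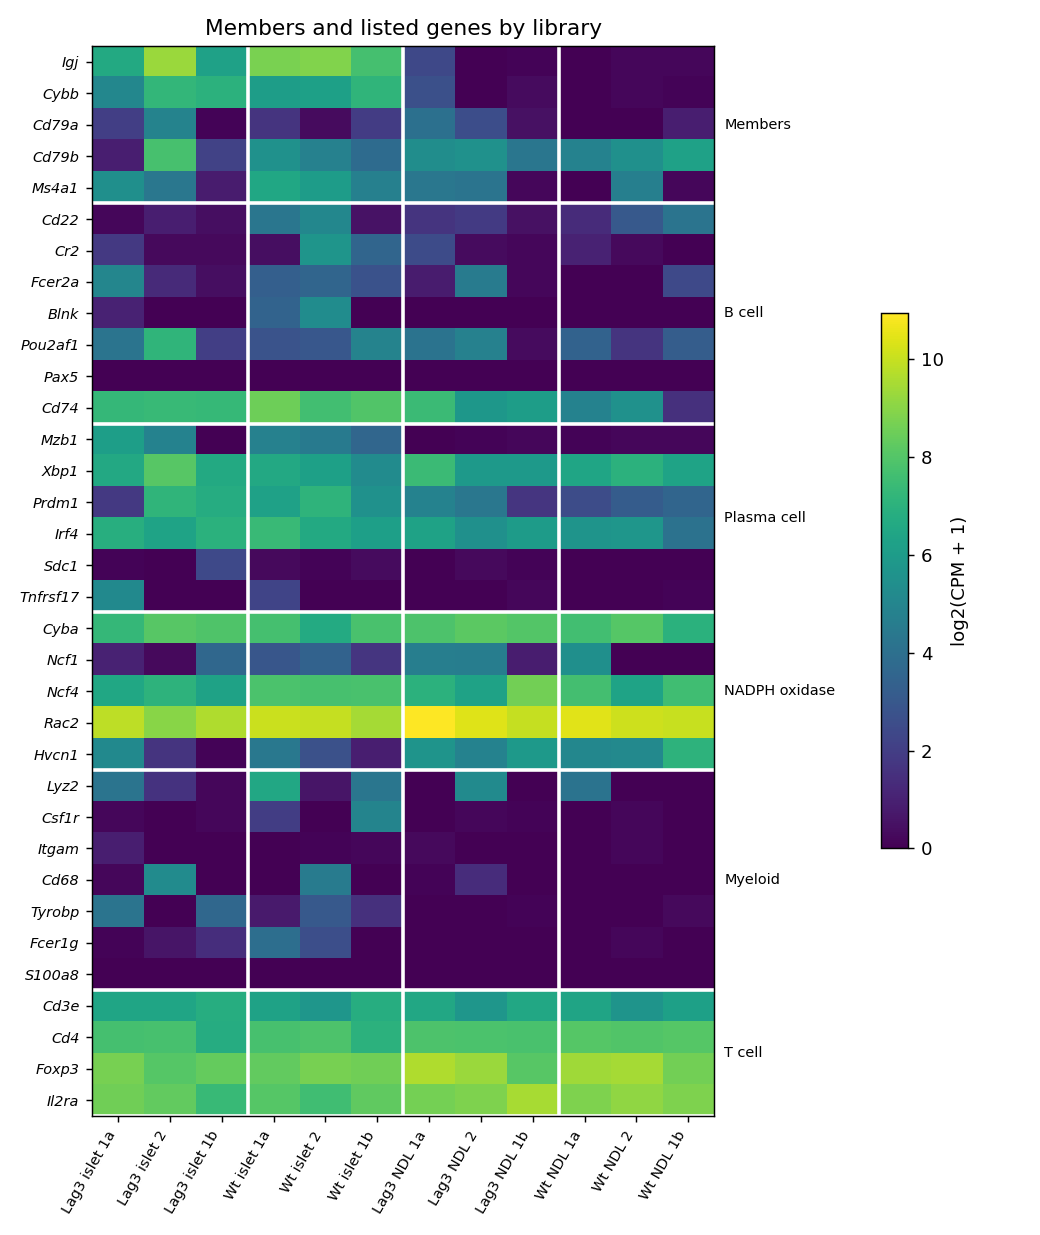
Level in log2(CPM + 1) of the members and of a selection of listed genes (rows, chosen for show after their values were seen) in each library (columns), coloured from 0 to the highest value; white lines separate groups and lists. Igj and Cybb are bright in all 6 islet columns and dark in NDL, Cyba and Rac2 are bright throughout, and Pax5 and S100a8 are at 0 throughout.

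RNA of pancreatic tissue moved with the tissue of origin as well. Digestive enzyme genes of the exocrine pancreas summed to 41.8 to 583 CPM in Lag3 islet and 208 to 3660 CPM in Wt islet libraries, and to 0.327 to 3.86 CPM in Lag3 NDL and 0.26 to 5.22 CPM in Wt NDL libraries. Of the 17 tested, 0 rose in islets in Lag3-deficient Tregs, 2 in Wt Tregs and 10 averaged over genotypes (limma adjusted p under 0.05), where 0.819% of all tested genes rose. Averaged over genotypes, 4 to 14 rose when 1 library was left out. Across the 6 islet libraries the sum gave r = -0.21 with Igj (exact permutation p = 0.696, adjusted p = 0.812) and r = -0.33 with Cybb (exact permutation p = 0.515, adjusted p = 0.784). The part of pancreatic RNA in the members' levels was not tested. Markers of CD8 and NK cells summed to 233 to 561 CPM in Lag3 islet, 423 to 613 in Wt islet, 106 to 150 in Lag3 NDL and 23.5 to 60.4 in Wt NDL libraries. Most of it came from Nkg7, Ccl5 and Gzmb, with means of 294, 175 and 51.7 CPM in Wt islet libraries, where Cd8a averaged 1.4 CPM. Of the 6 tested, 0 rose in islets in Lag3-deficient Tregs, 2 in Wt Tregs and 2 averaged over genotypes (limma adjusted p under 0.05). The part of these markers in the members' levels was not tested.

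The genes whose profile was most like that of Igj or Cybb were taken by the root mean square difference in log2(CPM + 1), centred per gene, over the 12 libraries. For Igj they were Fos at 1.11, Hspa1a at 1.5, Plk2 at 1.59, Ctrb1 at 1.62 and Jun at 1.66, where the median over all genes was 4.08. For Cybb they were Fos at 0.91, Plk2 at 1.07, Gm9199 at 1.17, Gm14005 at 1.28 and Ccl4 at 1.30, where the median was 3.33. Fos and Jun are immediate early transcription factor genes, Hspa1a encodes an inducible Hsp70, Ctrb1 encodes the digestive enzyme precursor chymotrypsinogen, and Ccl4 encodes a chemokine. Fos, for example, was at 295 to 570 CPM in islet and 0.261 to 5.96 CPM in NDL libraries. Igj and Cybb differed from each other by 1.17, which put Cybb in rank 2 from Igj and Igj in rank 3 from Cybb among 10867 genes. None of these nearest genes was a B cell or plasma cell marker of the lists, and the measure follows mainly the step between tissues.

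Igj and Cybb were selected for their gap between tissues, so its size is a description. The lowest islet library was at least 5 times the highest NDL library for 17 of the 10868 tested genes (0.156%), a limit set after the values were seen. Besides Igj and Cybb these were Ctrb1, listed at 0 in all NDL libraries, Hspa1a, Hspa1b, Fos, Pnlip, Prss2, Cebpb, Gm9199, Klf4, Ccl4, Rgs2, Plk2, Ccl5, Dusp1 and Gm14005. The ratio was 294 for Hspa1a, 17.8 for Igj and 5.25 for Gm14005. Reads of Hspa1a and Hspa1b, near-identical copies, cannot be told apart with certainty. In the other members, Cd79a, Cd79b and Ms4a1, the gap was absent: they had their lowest islet libraries at 1, 14 and 12 rescaled counts and their highest NDL libraries at 235, 1166 and 385.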

How the data were processed

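Per the labels, cytoplasmic RNA of mouse Tregs was sequenced. The submitters' processing notes name TopHat2, DESeq2 and the build mm10, and give neither a version nor a role. The authors deposited 2 gene tables that hold a signal, read here as rescaled counts because the column totals are nearly equal. The second table (10317 genes) served as an alternative. Depth is unknown, so no counting intervals are given. CPM is the value divided by its column total. Tests used limma 3.58.1 in R 4.3.3 with a mean-variance trend on log2(CPM + 1), after TMM scaling that trimmed 30% of ratios and 5% of levels, in 1 model of the 4 groups with 8 residual degrees of freedom. A pseudocount of 1 CPM understates changes of low genes. The test took the 10868 genes, of 21708 above 0, with 10 or more rescaled counts in 3 or more libraries, and p-values were adjusted by Benjamini-Hochberg within each comparison (threshold 0.05). All tests are two-sided. The script was tested on simulated data. All 5 members passed the filter, so the exact test planned for members below it was not needed.

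Of the columns, 2 of each group carry the same header number and are placed by group alone, and 0 columns lacked a group. The members and lists were chosen with earlier results of these data known. Named were the members, Lag3, listed genes past the threshold or else the 4 smallest p of a list, NADPH oxidase genes and the 5 genes nearest in profile to Igj and to Cybb. Some listed genes are not reported here. The alternatives were other scalings, pseudocounts, no filter, voom weights, the second table, a replicate block and leaving out libraries. Sequences and gene positions are from RefSeq, GRCm38.p6.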

Additional observations from a re-analysis of the deposited data

How the results depend on the processing

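No member passed the threshold between genotypes under any alternative (limma, lowest adjusted p 0.55, for Cd79a in islets). Of the members' values under alternatives, 402 kept their sign and side of the threshold and 18 changed sign, none of them past the threshold, and the cause was not tested. Relative log scaling put the genotype difference of Cybb in islets at 0.11, with the median of all genes at -0.03, against -0.22 under TMM. Averaged over tissues, voom weights gave 0.10 for Igj and 0.12 for Ms4a1. Without the 4 columns called 1b, an alternative chosen after seeing the data, the averaged differences were 0.07 for Igj and 0.20 for Ms4a1, and Cd79b in NDL was 0.17. The second table gave 0.07 for the difference between tissues of Cd79a. Leaving out 1 library at a time gave genotype differences in islets of -0.46 to 0.47 for Cybb, -0.20 to 2.07 for Cd79a and -3.17 to 0.05 for Cd79b. In NDL it gave -0.07 to 0.94 for Igj, averaged over tissues -1.11 to 0.17 for Ms4a1, and for the difference between tissues -2.11 to 0.17 for Cd79a and -2.65 to 0.60 for Cd79b. The relation of Igj with Cybb across islet libraries changed sign on ranks, to -0.14.

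Counts of called genes moved more. Lag3-deficient against Wt in islets gave 0 to 16 genes when 1 library was left out, the 16 without Lag3 islet 1b. Islet against NDL in Lag3-deficient Tregs (13 genes) gave 26 under relative log scaling, 7 with no filter, 23 under voom, 31 in the second table, 24 without the 1b columns and 9 to 32 with 1 library left out (32 without Lag3 islet 1b). In Wt Tregs (20 genes) it gave 11 with no filter, 54 under voom, 8 without the 1b columns and 9 to 25 with 1 library left out (9 without Wt islet 1a, and 11 each without Wt islet 1b, Wt NDL 1a, Wt NDL 2 or Wt NDL 1b). Averaged over genotypes (100 genes) it gave 40 with no filter, 151 under voom, 45 without the 1b columns and 65 to 106 with 1 library left out (65 without Wt islet 1a). With no filter the adjustment runs over more genes.

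Header numbers were not shown to pair libraries across groups: the deviations of the 4 libraries numbered 2 correlated between -0.0267 and 0.0497 over 6 pairs. With a replicate block by header number, limma called 0 genes in each genotype comparison, 14 between tissues in Lag3-deficient Tregs, 18 in Wt Tregs and 92 averaged, and Igj in islets stayed at -1.13 ± 1.10 (adjusted p = 0.965). Cd74 lost its call with no filter (adjusted p = 0.134 averaged), without the 1b columns (0.0875 averaged) and in Wt Tregs under voom (0.0838), and Mzb1 gained one under relative log scaling (0.0464), voom (0.0368) and without the 1b columns (0.04). Averaged over genotypes, Mzb1 stayed uncalled with no filter (limma adjusted p = 0.382), in the second table (0.0723) and with the replicate block (0.0705).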

Other observations

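Plasmacytoid dendritic cells were followed through 15 markers, 11 of them tested. None of the 11 was called between islet and NDL libraries in either genotype or averaged over genotypes (limma). Their summed level was 161 to 239 CPM in Lag3 islet, 213 to 360 in Wt islet, 139 to 243 in Lag3 NDL and 163 to 172 in Wt NDL libraries. Averaged over genotypes, the islet minus NDL difference was positive for 6 of the 11. Its median was 0.34 log2, against -0.04 over all tested genes. The smallest p belonged to Irf8, at 2.39 ± 0.61 (limma adjusted p = 0.0686), and Tlr7, at -3.48 ± 1.08 (limma adjusted p = 0.174). Siglech, a defining receptor of these cells, was not tested and was singled out after its values were seen. It was listed at 1, 8 and 0 rescaled counts in Lag3 islet libraries and 701, 1 and 382 in Wt islet libraries, and at no more than 5 in NDL libraries. Endocrine islet markers, the hormones among them, summed to 4.11 to 36.2 CPM in Lag3 islet, 9.11 to 223 in Wt islet, 0.0654 to 0.523 in Lag3 NDL and 0 to 1.17 in Wt NDL libraries. Stroma and endothelium markers summed to 20.8 to 205 CPM in Lag3 islet, 5.37 to 29.8 in Wt islet, 27.2 to 77 in Lag3 NDL and 6.53 to 123 in Wt NDL libraries. In Lag3-deficient against Wt islet libraries, 0 genes were called in each of the 11 lists (limma). The median difference was -2.07 log2 for the 11 tested B cell markers, 3 of them positive, and -0.74 for the 15 plasma cell genes, 5 of them positive, against -0.22 over all tested genes. It was -2.77 for the 17 tested exocrine pancreas markers, 0 of them positive, in the same libraries.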
